A study of Mus musculus with 6 samples.

Results

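Of the 25428 genes measured in hypoxic mouse lung, 9 genes of neutrophil granules and receptors were followed: S100a8, S100a9, Ngp, Camp, Ltf, Retnlg, Csf3r, Fpr1 and Fpr2. They were found by matching the gene number of each array feature to these symbols, and each had exactly 1 feature. The matching made no use of their values, but the genes were chosen with earlier results of these data known. The lungs came from Nfat5fl/fl mice, whose alleles of the transcription factor gene Nfat5 are floxed, and from Nfat5(EC)-/- mice, in which the gene is deleted in endothelial cells. Both genotypes were kept in 10% oxygen for 7 days, and total RNA of 1 lung lobe was hybridised to 1 array per mouse. Each group held 3 mice, numbered 1, 3 and 4. The sources used here give neither the Cre driver nor the age and sex of the mice, and no normoxic lung was analysed here, so that the values describe the genotype difference under hypoxia alone.

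Neutrophils are short-lived phagocytes that patrol the blood and are held in large numbers in the capillaries of the lung. They carry antimicrobial proteins in granules that are filled in sequence while the cells mature in the bone marrow, primary granules first, then specific and gelatinase granules. Surface receptors for growth factors, chemokines and formylated bacterial peptides set their survival and steer them towards sites of infection or injury.

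All values are log2 expression values, for which the median of each array was 2.98 and the range over all features 0.73 to 13.01. Differences are Nfat5(EC)-/- minus Nfat5fl/fl on this scale, with the standard error (SE) and the p-value of limma adjusted by the Benjamini-Hochberg procedure over all 25428 features, and genes passed at an adjusted p under 0.05. The targeted gene was lower in the Nfat5(EC)-/- group: Nfat5 measured 6.65, 6.58 and 6.30 in Nfat5fl/fl mice 1, 3 and 4 against 4.46, 4.48 and 3.89 in Nfat5(EC)-/- lungs (difference -2.23, SE 0.23, adjusted p = 0.00151). Across all features the arrays correlated at 0.968 to 0.970 within the Nfat5fl/fl group, at 0.916 to 0.939 within the Nfat5(EC)-/- group and at 0.829 to 0.919 between the groups. The labels do not say whether the mice share litters or a hybridisation run. The p-values set each difference against the spread within the groups, with variances moderated over all 25428 features. They speak for these 6 lungs only.

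The features of the neutrophil genes were dim. Of the 9 genes, 6 had a mean at or below the median feature mean of 3.01, and 3 lay above it. For orientation, 1335 features of olfactory and vomeronasal receptors, a comparison chosen after the values were seen and made of genes whose known expression is mainly in sensory neurons, had means with a median of 1.61 and a 5th to 95th percentile range of 1.31 to 2.63. The means of 5 neutrophil genes (S100a8, S100a9, Ngp, Camp and Fpr1) lay within that range, and those of Ltf, Retnlg, Csf3r and Fpr2 lay above it. Fpr1 was at the edge, with a mean of 2.6275 beside a 95th percentile of 2.6281. Its Nfat5fl/fl values (3.23, 2.94 and 2.77) and that of Nfat5(EC)-/- mouse 3 (2.73) lay above the range. Ly6g, which encodes the surface antigen used to define mouse neutrophils, measured 1.6, 1.37 and 1.88 in Nfat5fl/fl lungs against 1.66, 1.68 and 1.89 in Nfat5(EC)-/- lungs, also within that range. Single values of S100a8 in Nfat5(EC)-/- mouse 4 (2.67) and of Ngp in Nfat5(EC)-/- mouse 3 (2.64) lay just above that range. The level of a feature on these arrays does not show whether its RNA was present, and the 9 genes are described as genes and not as a measure of neutrophil number. Features differ in brightness at equal amounts of RNA and carry no detection call, so no order among genes is read from their levels.

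Only 2 of the 9 genes passed the test, 1 higher (Ngp) and 1 lower (Fpr2), which is 22.2% of the genes. Among all features 25.6% passed, 12.5% higher and 13.1% lower, and among the 12714 features at or below the median feature mean 7.86% passed. The count is thus close to the share over all features. Both genes that passed were dim, however, with means of 2.16 (Ngp) and 2.95 (Fpr2) beside the median feature mean of 3.01. No change of the group as a whole is read from the count. The groups did not overlap for Ngp, Fpr1 and Fpr2, which is 33.3% of the genes, beside 42% of all features and 24.8% of the dim ones. The median difference of the 9 genes was -0.17, beside 0.04 for all features, and turned to 0.17 when Nfat5(EC)-/- mouse 1 was left out. In lung lobe RNA, fewer cells of a type and less RNA per cell cannot be told apart.

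**Figure D1:**
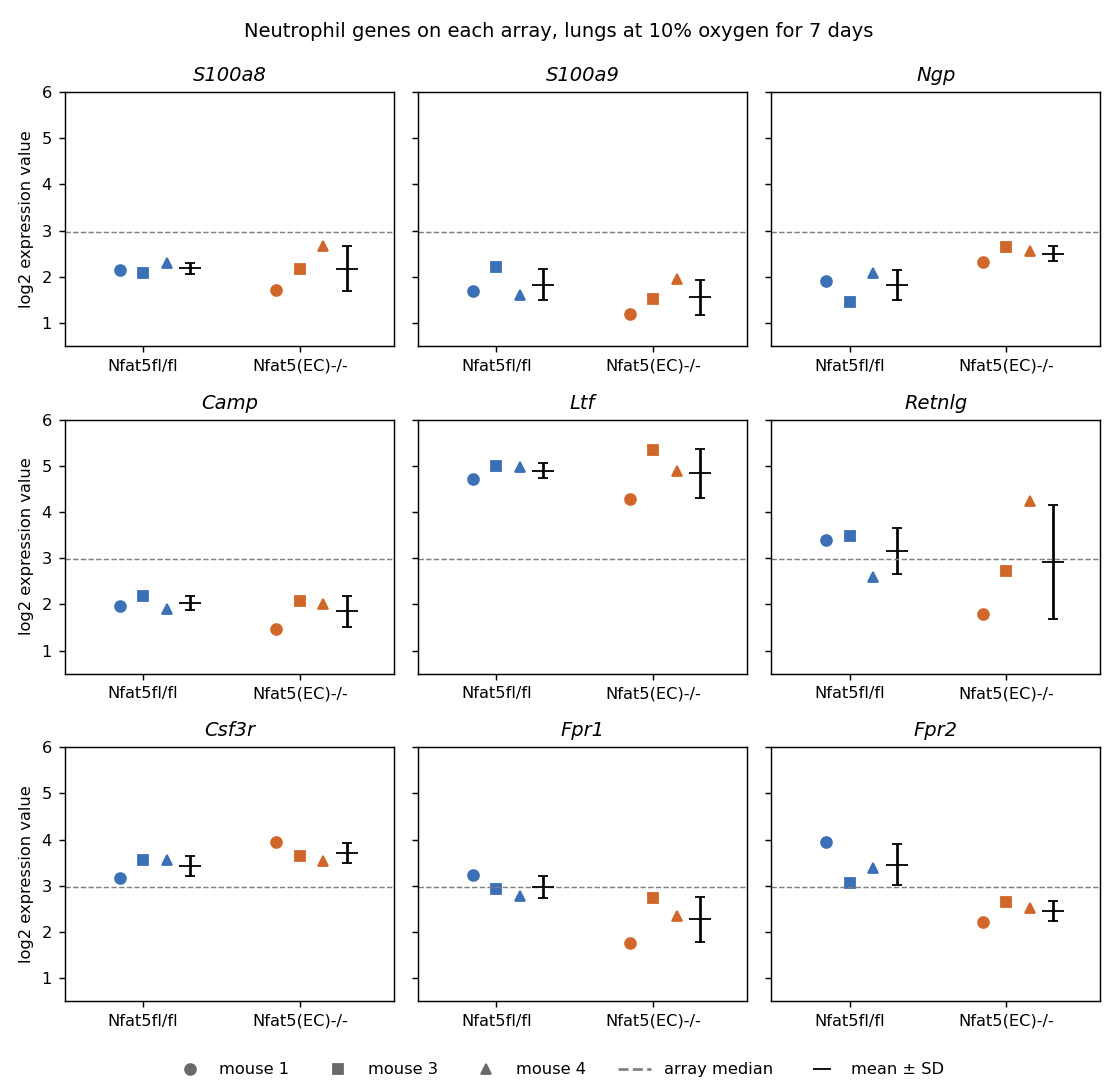
Log2 expression value (vertical axis) of the 9 neutrophil genes in each lung by genotype, with 1 symbol per mouse, the mean ± SD of 3 mice as bars and the array median of 2.98 as a dashed line. The groups are apart for Ngp, Fpr1 and Fpr2 and overlap for the other genes, of which Retnlg has the widest spread in Nfat5(EC)-/- lungs (1.78 to 4.23).

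Fpr2 and Fpr1, the receptors for formylated peptides, had the largest differences of the 9 genes. The proteins are G protein-coupled receptors of neutrophils, monocytes and macrophages, and FPR2 also binds lipid and protein ligands such as annexin A1. In the RefSeq table the genes are direct neighbours on opposite strands, which is why the sequences before their starts are shown here together with that of Ngp, the other gene that passed. Each is the 250 bases upstream of the annotated start, 5′ to 3′ on the strand of the gene, from the RefSeq promoter table of build GRCm38.p6: Fpr1 at chr17:17883940-17884189 on the minus strand, Fpr2 at chr17:17887574-17887823 on the plus strand and Ngp at chr9:110419558-110419807 on the plus strand. Capitals mark GGAAA, the core that NFAT proteins bind, or its reverse complement.
Fpr1: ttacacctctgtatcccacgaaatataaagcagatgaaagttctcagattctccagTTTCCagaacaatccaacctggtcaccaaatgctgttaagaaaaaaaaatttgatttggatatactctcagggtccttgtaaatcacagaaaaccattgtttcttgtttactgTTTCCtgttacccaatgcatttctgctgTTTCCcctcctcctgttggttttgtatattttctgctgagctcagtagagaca
Fpr2: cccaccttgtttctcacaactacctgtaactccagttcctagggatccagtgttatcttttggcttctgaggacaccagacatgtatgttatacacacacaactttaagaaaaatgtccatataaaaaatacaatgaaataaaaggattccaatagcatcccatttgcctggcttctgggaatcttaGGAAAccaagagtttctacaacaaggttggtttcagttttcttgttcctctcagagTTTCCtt
Ngp: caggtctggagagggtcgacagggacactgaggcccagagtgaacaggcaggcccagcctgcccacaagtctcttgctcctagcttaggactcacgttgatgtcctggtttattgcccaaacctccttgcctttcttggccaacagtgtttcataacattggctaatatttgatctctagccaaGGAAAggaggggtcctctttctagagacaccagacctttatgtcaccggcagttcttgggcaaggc

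The Fpr1 window held 3 such cores, that of Fpr2 held 2 and that of Ngp held 1. The letters GGAAA are short and occurred on either strand in 55.6% of the 32851 promoter windows of the table, and in 9 of 9 of the neutrophil genes. TGGAAA, the core of the tonicity element that NFAT5 recognises, always contains a GGAAA and occurred in 18.6% of all windows and in 2 of 9, once in Fpr1 (194 bases before the start) and once in Retnlg (148 bases before the start). Neither Fpr2 nor Ngp, the genes that passed, had it. GAGGAAG, a core of the myeloid factor PU.1, occurred in 10.6% of windows and in 2 of 9 (S100a8 and Csf3r). TTNNNCAA, a spacing of C/EBP half-sites, occurred in 33.3% and in 6 of 9, where Ngp had the most matches, and TATAAA occurred in 12.4% and in 3 of 9 (S100a8, Fpr1 and Fpr2). The promoters were described after the expression values had been seen, both strands were searched, and a match is a description of the letters and not of binding.

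Fpr2 measured 3.94, 3.05 and 3.38 in Nfat5fl/fl mice 1, 3 and 4 against 2.20, 2.65 and 2.51 in Nfat5(EC)-/- lungs. Every Nfat5fl/fl value lay above every Nfat5(EC)-/- value, and mouse 1 was at the outer end of both groups. The mean of Fpr2 fell, from 3.46 ± 0.45 to 2.45 ± 0.23 (SD, n = 3 each), with a difference of -1.0 (SE 0.26, 95% confidence interval -1.59 to -0.42, adjusted p = 0.0219 by limma). The Nfat5(EC)-/- mean lay within the olfactory and vomeronasal range, whose 95th percentile was 2.63, so that no fold is given. The call was kept in 10 of 13 alternative fits. It was lost without Nfat5fl/fl mouse 1 (-0.76, adjusted p = 0.0834), without Nfat5fl/fl mouse 4 (-1.04, adjusted p = 0.0567) and without moderation of the variances (adjusted p = 0.113).

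Fpr1 measured 3.23, 2.94 and 2.77 in Nfat5fl/fl lungs against 1.76, 2.73 and 2.34 in Nfat5(EC)-/- lungs. The groups were apart by little, since Nfat5(EC)-/- mouse 3 almost reached Nfat5fl/fl mouse 4. The means were 2.98 ± 0.24 and 2.27 ± 0.49 (SD, n = 3 each), and the difference of -0.71 (SE 0.27) did not pass (adjusted p = 0.0879 by limma, unadjusted p = 0.0281). It passed in 2 of 13 alternative fits, without Nfat5(EC)-/- mouse 3 (-0.93, adjusted p = 0.0354) and after the trend on gene span had been removed (-0.98, adjusted p = 0.0291). Whether Fpr1 and Fpr2 differ in their response was not tested. The other formyl peptide receptor genes, 5 in number, gave 0 calls and a median difference of 0.10. Among them Fpr-rs3 (difference 0.19) and Fpr3 (difference 0.11) had the smallest p-values, and the means of all 5 lay no higher than the olfactory and vomeronasal range.

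Csf3r encodes the receptor for granulocyte colony-stimulating factor, which drives the formation and release of neutrophils. It measured 3.17, 3.55 and 3.55 in Nfat5fl/fl lungs against 3.95, 3.64 and 3.54 in Nfat5(EC)-/- lungs. The highest value was that of Nfat5(EC)-/- mouse 1, the array on which most of the other neutrophil genes were lowest, and the groups overlapped. The difference of 0.29 (SE 0.21, 95% confidence interval -0.18 to 0.76) did not pass (adjusted p = 0.361 by limma).

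Ngp, neutrophilic granule protein, is a cathelicidin-related protein of specific granules. It measured 1.91, 1.45 and 2.07 in Nfat5fl/fl lungs against 2.32, 2.64 and 2.55 in Nfat5(EC)-/- lungs, with no overlap. All 6 values lay below the array median, and the mean lay within the olfactory and vomeronasal range, so that no fold is given. The smallest gap between the groups was that between Nfat5fl/fl mouse 4 and Nfat5(EC)-/- mouse 1. Its mean rose from 1.81 ± 0.32 to 2.5 ± 0.17 (SD, n = 3 each), a difference of 0.69 (SE 0.22, 95% confidence interval 0.19 to 1.19) at an adjusted p of 0.0496 by limma. The call lay at the threshold and was kept in 4 of 13 alternative fits. Over all 13 the adjusted p ranged from 0.0393 to 0.259. It was lost with each array left out in turn except Nfat5(EC)-/- mouse 1 (adjusted p = 0.108 without Nfat5fl/fl mouse 1, 0.193 without mouse 3, 0.0582 without mouse 4, and 0.114 and 0.0928 without Nfat5(EC)-/- mice 3 and 4). The call was also lost with the mouse number as a block (adjusted p = 0.0728), with cyclic loess (adjusted p = 0.0636) and without variance moderation (adjusted p = 0.123). Removal of the gene span trend lost it too (0.36, adjusted p = 0.259).

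**Figure D2:**
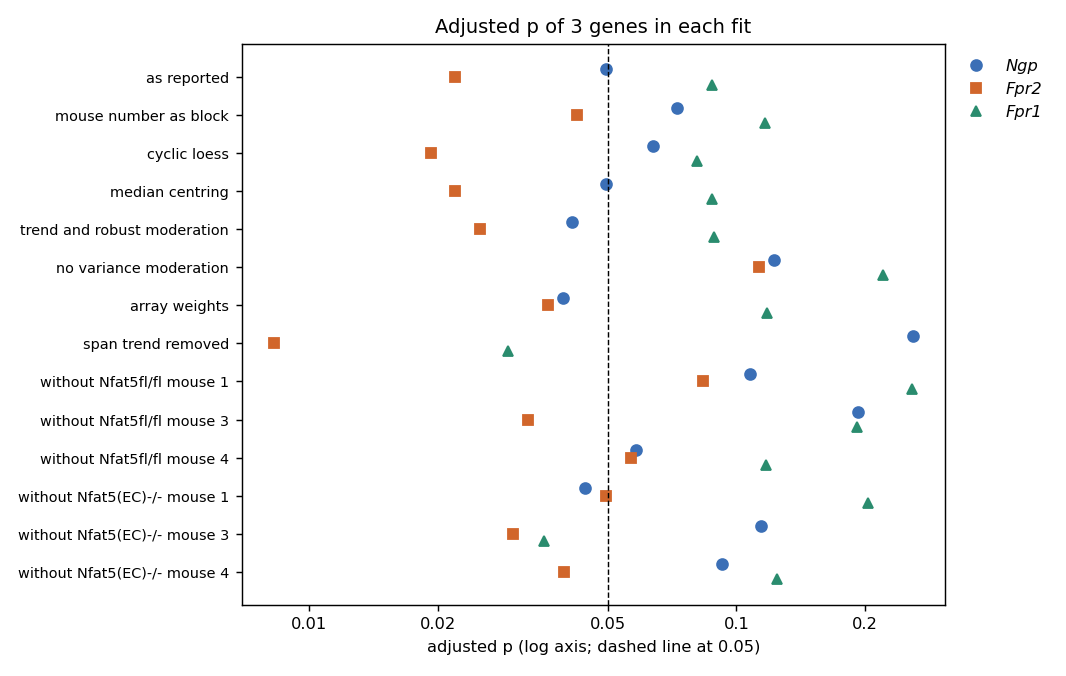
Adjusted p (horizontal, log axis, dashed line at 0.05) of Ngp, Fpr2 and Fpr1 under the reported fit and each alternative that kept the dim features. Fpr2 lies left of the line in most fits, whereas Ngp moves between 0.0393 and 0.259 and Fpr1 passes in 2 fits.

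Camp encodes the cathelicidin precursor, whose peptide kills bacteria, and belongs to the same gene family as Ngp. It measured 1.97, 2.19 and 1.90 in Nfat5fl/fl lungs against 1.46, 2.08 and 2.01 in Nfat5(EC)-/- lungs. Only Nfat5(EC)-/- mouse 1 lay outside the Nfat5fl/fl range, and the difference of -0.17 (SE 0.22, 95% confidence interval -0.68 to 0.34) did not pass (adjusted p = 0.632 by limma). Lactoferrin, encoded by Ltf, binds iron in specific granules and is also secreted by glandular epithelia. Ltf measured 4.70, 5.0 and 4.97 against 4.28, 5.34 and 4.88, with the lowest and the highest of the 6 values in the Nfat5(EC)-/- group. Its difference was -0.06 (SE 0.27, 95% confidence interval -0.68 to 0.56, adjusted p = 0.906 by limma).

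S100A8 and S100A9 form calprotectin, a calcium- and zinc-binding complex that fills the neutrophil cytoplasm and acts outside the cell as an alarm signal, and their genes are direct neighbours. S100a8 measured 2.15, 2.09 and 2.30 in Nfat5fl/fl lungs against 1.70, 2.16 and 2.67 in Nfat5(EC)-/- lungs. The Nfat5(EC)-/- values enclosed those of the other group, and the means were 2.18 ± 0.11 and 2.18 ± 0.49 (SD, n = 3 each), a difference of -0.00048 with a 95% confidence interval of -0.58 to 0.58 (adjusted p = 0.999 by limma). S100a9 measured 1.69, 2.21 and 1.6 against 1.19, 1.52 and 1.94. The groups overlapped, and the difference of -0.28 (SE 0.26, 95% confidence interval -0.86 to 0.31) did not pass (adjusted p = 0.485 by limma).

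Retnlg encodes a resistin-like molecule that is made mainly in bone marrow and neutrophils. It measured 3.38, 3.49 and 2.59 in Nfat5fl/fl lungs against 1.78, 2.73 and 4.23 in Nfat5(EC)-/- lungs. The lowest and the highest value were both in the Nfat5(EC)-/- group, whose SD of 1.23 was the widest of the 9 genes, beside 0.49 in the Nfat5fl/fl group. The difference of -0.24 (SE 0.54) had a 95% confidence interval of -1.45 to 0.98 and did not pass (adjusted p = 0.793 by limma). None of the other 3 resistin genes passed, among which Retn gave -0.86 (adjusted p = 0.259) and Retnlb 0.16 (adjusted p = 0.643).

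**Figure D3:**
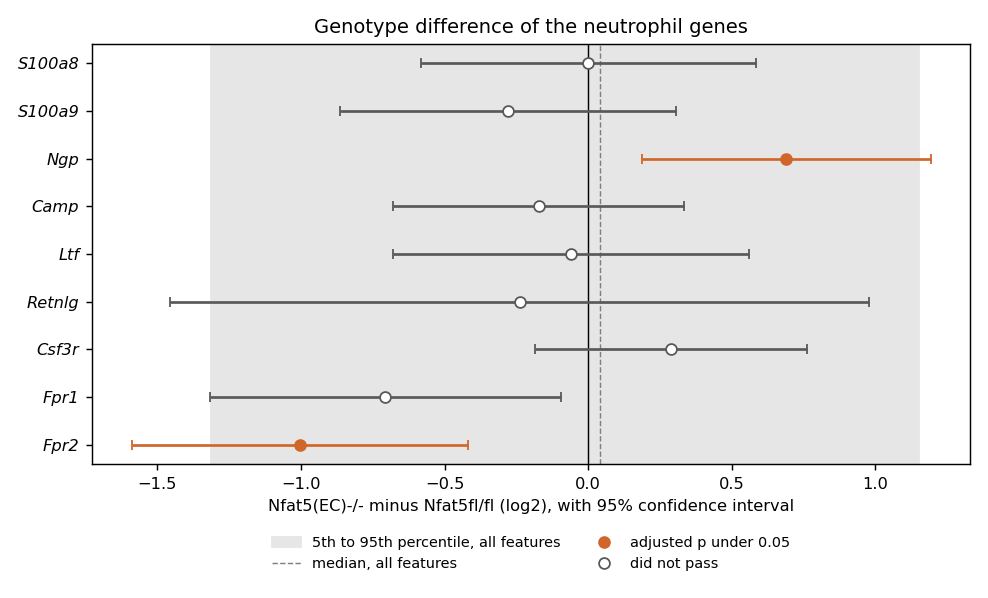
Difference between the genotypes (horizontal axis, log2) of the 9 neutrophil genes with its 95% confidence interval, beside the 5th to 95th percentile of all features (-1.31 to 1.15, grey) and their median (0.04, dashed). Filled points passed an adjusted p of 0.05, which were Ngp at 0.69 and Fpr2 at -1.0, and all 9 points lie within the grey range.

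The 9 genes did not vary alike between the lungs. For 7 of them the lowest of the 6 arrays was Nfat5(EC)-/- mouse 1, the exceptions being Ngp, lowest in Nfat5fl/fl mouse 3, and Csf3r, lowest in Nfat5fl/fl mouse 1. That array was the lowest for 20.2% of all features and 18.1% of the dim ones, and the highest for 23.6% of all features. The mean over the 9 genes was 2.91, 2.88 and 2.79 in Nfat5fl/fl lungs against 2.29, 2.83 and 2.96 in Nfat5(EC)-/- lungs, so that 1 lung stood apart and the other 5 lay close together. Without Nfat5(EC)-/- mouse 1 the difference was 0.24 for S100a8, 0.32 for Retnlg, 0.22 for Ltf and 0.02 for Camp, none of which passed. Fpr2 still passed without it (-0.88, adjusted p = 0.0494 by limma), as did Ngp (0.78, adjusted p = 0.0442 by limma), whereas the difference of Fpr1 was -0.45. The SD was larger in the Nfat5(EC)-/- group for 6 of the 9 genes, beside 67.0% of all features.

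**Figure D4:**
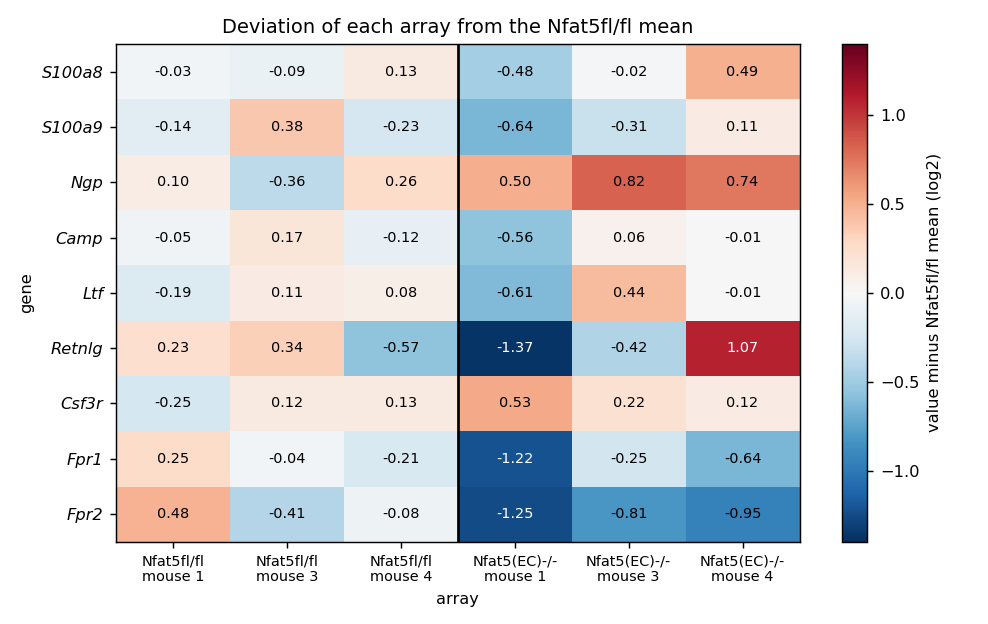
Value of each array minus the Nfat5fl/fl mean of that gene (colour and printed value, log2), with genes as lines and arrays as columns. Nfat5(EC)-/- mouse 1 is the lowest array for 7 of 9 genes, with -1.37 for Retnlg and -1.25 for Fpr2, but is the highest for Csf3r (0.53).

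As a description over the 6 arrays, Fpr1 and Fpr2 correlated at 0.877, S100a9 and Retnlg at 0.839, Camp and Ltf at 0.837, S100a9 and Camp at 0.821, and S100a8 and Retnlg at 0.808. S100a8 and S100a9 correlated at 0.553. Csf3r ran opposite to both formyl peptide receptor genes, at -0.882 with Fpr1 and -0.881 with Fpr2. Apart from S100a8 with S100a9, these pairs were picked as the highest and lowest among the 9 genes. The points share 6 arrays and the genotype difference. With the group means removed, Fpr1 and Fpr2 correlated at 0.688, the other high pairs at 0.789 to 0.869, and Csf3r at -0.796 with Fpr1 and -0.859 with Fpr2. The genes whose values were most like the mean of the 9 over all arrays, among 12312 brighter named features, were Katna1 (r = 0.993), Pisd-ps2 (0.990), Pomt1 (0.989), Araf (0.988), Snrnp27 (0.988), Mcemp1 (0.987), Elmod3 (0.986) and Otud7b (0.986). After removal of the group means they were Gm5830, Mrpl19, Rsph4a, Clk3, Plpbp, Dipk1a, Pih1d2 and Slc15a3, at 0.9996 for the most and 0.997 for the least alike, and no gene was in both sets of 8. Both sets hold the highest of 12312 correlations over 6 arrays, where values near 1 can arise by chance, and were not tested.

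Other genes of neutrophil granules were counted from lists chosen with earlier results of these data known. The counts of this and all following lists stand beside 25.6% of all features that passed, 12.5% higher and 13.1% lower. Among the dim features 7.86% passed. No change of a list as a whole is read from its count. Of 6 primary granule genes 1 passed, since Prtn3, encoding proteinase 3, rose (2.73, 2.74 and 3.26 against 4.16, 3.68 and 3.56, difference 0.89, adjusted p = 0.0266), a call lost without Nfat5fl/fl mouse 1 (adjusted p = 0.105), without Nfat5fl/fl mouse 3 (adjusted p = 0.110) and without Nfat5(EC)-/- mouse 1 (adjusted p = 0.0578). The median of the list was 0.27. Of 12 further specific and gelatinase granule genes 1 passed, and the median was 0.28. Lcn2, encoding the siderophore-binding lipocalin 2 of specific granules, which airway and alveolar epithelium also makes, fell from 9.93, 9.97 and 10.10 to 7.62, 8.24 and 8.01 (difference -2.04, adjusted p = 0.00159), and it passed in 14 of 14 alternative fits. Ltf, the other iron-scavenging granule gene, measured within 4.28 to 5.34 in all 6 lungs and did not pass.

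In a list of the NADPH oxidase complex and of Padi4, a gene of neutrophil extracellular traps, the calls were all of oxidase genes. Of 7 genes 2 rose and 1 fell, with a median of 0.50. Cyba, the p22phox subunit, rose by 1.68 (adjusted p = 0.00235) and Rac2, the small GTPase of the complex, by 0.99 (adjusted p = 0.00885), whereas Cybb, the gp91phox subunit that pairs with p22phox, fell by 1.49 (adjusted p = 0.0091). All 3 are expressed outside neutrophils as well, and which cells of the lobe gave their RNA was not tested. Padi4 gave -0.19 (adjusted p = 0.607).

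Of 20 other receptors of neutrophils 1 rose and 2 fell, with a median of 0.01. Cxcr1, a chemokine receptor, rose from 2.66, 2.58 and 2.73 to 4.42, 4.25 and 3.90 (difference 1.54, adjusted p = 0.00235). Tlr4, the endotoxin receptor, fell by 1.0 (adjusted p = 0.00909), and Csf2rb, the shared beta chain of the GM-CSF, IL-3 and IL-5 receptors, by 0.98 (adjusted p = 0.0161). The call of Tlr4 was lost without Nfat5fl/fl mouse 3 (adjusted p = 0.0505) and that of Csf2rb without Nfat5fl/fl mouse 1 (adjusted p = 0.0743). Of 4 receptors of calprotectin Tlr4, which is in both lists, and the scavenger receptor gene Cd36 (difference -1.44, adjusted p = 0.0119) passed, the latter lost without Nfat5fl/fl mouse 1 (adjusted p = 0.0578) or mouse 3 (adjusted p = 0.0562).

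Of 7 adhesion and surface genes, Ly6g among them, 1 passed, Ceacam1 (difference -2.19, adjusted p = 0.010), which was lost without Nfat5fl/fl mouse 1 (adjusted p = 0.0506) and which endothelial and epithelial cells also express. Of 9 ligands and growth factors that recruit or form neutrophils 1 passed, the chemokine gene Cxcl15, which mouse lung epithelium makes, and it fell by 1.66 (adjusted p = 0.00223). Of 13 other S100 genes measured 2 rose, S100a6 by 1.26 (adjusted p = 0.0034) and S100a16 by 0.87 (adjusted p = 0.0136), the latter lost without Nfat5fl/fl mouse 1 (adjusted p = 0.0562) or mouse 3 (adjusted p = 0.0614). Of 7 transcription factors of granulocyte formation 3 rose and 0 fell, with a median of 0.47, beside 12.5% of all features higher and 13.1% lower. Cebpa rose by 1.88 (adjusted p = 0.00162), Cebpb by 1.46 (adjusted p = 0.00243) and Spi1, encoding PU.1, by 0.75 (adjusted p = 0.0167), the last lost without Nfat5fl/fl mouse 1 (adjusted p = 0.0658) or mouse 3 (adjusted p = 0.0714). Cebpa and Cebpb are expressed in alveolar epithelium and macrophages too.

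**Figure D5:**
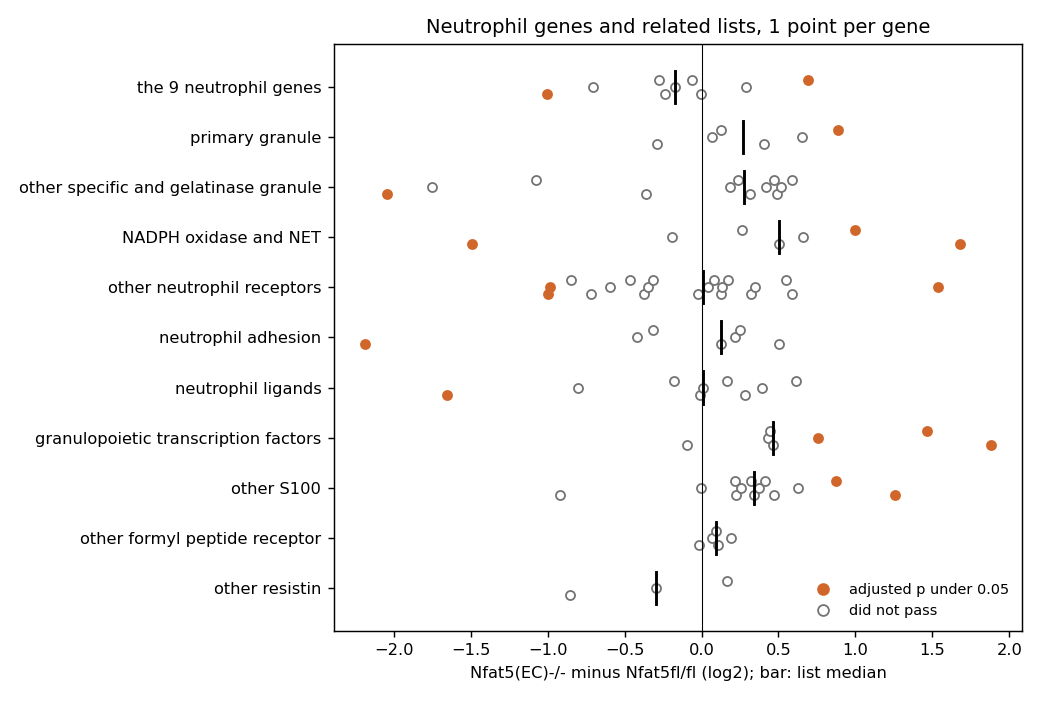
Difference between the genotypes (horizontal axis, log2) of each gene of the 9 neutrophil genes and of 10 related lists, with 1 point per gene, filled where the adjusted p was under 0.05, and the list median as a bar. Most points are open, and the medians run from -0.29 (other resistin genes) to 0.50 (NADPH oxidase and extracellular trap genes).

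Fpr1 and Fpr2 are also expressed by monocytes and macrophages, and the markers of these cells were set beside them. Of 10 monocyte markers 0 rose and 2 fell, F13a1 (4.58, 4.65 and 4.35 against 1.94, 3.93 and 3.07, adjusted p = 0.0278) and Ly6c2 (5.46, 5.4 and 5.84 against 2.82, 3.89 and 5.17, adjusted p = 0.0407). Both were lowest in Nfat5(EC)-/- mouse 1, as were Fpr1 and Fpr2. The list was mixed in this, since Csf1r and Ms4a4c were also lowest in that lung but Fn1, Treml4 and Spn were highest in it. Ccr2, Cx3cr1 and Nr4a1 were lowest in other lungs. The calls of F13a1 and Ly6c2 were both lost on leaving out any of the 3 Nfat5fl/fl mice (adjusted p = 0.0941, 0.0995 and 0.0635 for F13a1 and 0.106, 0.101 and 0.123 for Ly6c2). Ly6c2 was also lost without Nfat5(EC)-/- mouse 1 (adjusted p = 0.0659) or mouse 3 (adjusted p = 0.0884), and F13a1 without mouse 4 (adjusted p = 0.0521). The mean of the 10 markers was 4.52 to 4.6 in Nfat5fl/fl lungs against 4.09 to 4.49 in Nfat5(EC)-/- lungs, with a median difference of 0.18.

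Of 9 alveolar macrophage markers measured 1 rose (Car4, 0.63, adjusted p = 0.0467) and 2 fell, Mrc1 (-1.47, adjusted p = 0.00687) and Pparg (-0.84, adjusted p = 0.0472). The calls of Car4 and Pparg lay near the threshold and were each lost in 9 of 14 alternative fits. The mean of these markers was 5.11 to 5.37 in Nfat5fl/fl lungs against 4.55 to 5.0 in Nfat5(EC)-/- lungs. Which cells of the lobe gave the RNA of these markers was not tested. The part of monocytes or macrophages in the values of Fpr1 and Fpr2 was not tested either.

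The lists of other cell types were counted in the same way, beside 25.6% of all features and 7.86% of the dim ones that passed. Of 7 eosinophil markers 1 fell (Il5ra, -0.65), of 8 mast cell and basophil markers 1 (Cpa3, -1.32), of 10 platelet markers 1 (Ppbp, -1.24), of 8 T cell markers 1 (Cd3g, -1.10) and of 7 measured erythroid and 7 measured NK cell markers 0, while of 8 B cell markers Cd79a rose (0.78) and Cd22 fell (-0.65). Of the alternative fits, 8 lost the call of Il5ra, 4 that of Cpa3, 4 that of Ppbp, 3 that of Cd3g, 9 that of Cd79a and 9 that of Cd22. Among the NK cell markers Gzma (-0.81, adjusted p = 0.0504) passed in 4 of 13 alternative fits, and Klrb1c (1.06, adjusted p = 0.284) in 0 of 14. Of the erythroid markers, Alas2 (0.92, adjusted p = 0.167) passed with the mouse number as a block (adjusted p = 0.0174). Without Nfat5(EC)-/- mouse 1 both Alas2 (1.34, adjusted p = 0.0392) and Slc4a1 (0.94, adjusted p = 0.0427, beside 0.41 and adjusted p = 0.537 with all arrays) passed. Of 10 lung tissue markers 4 fell, among them the endothelial genes Cdh5 (difference -1.52, adjusted p = 0.0044) and Tek (difference -2.01, adjusted p = 0.00539). The alveolar epithelial genes went both ways, since Sftpa1 fell (difference -1.04, adjusted p = 0.00703) and Aqp5 rose (difference 1.4, adjusted p = 0.00345).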

How the data were processed

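Per the labels, the authors made the deposited log2 values with RMA, that is, background correction, quantile normalization and a summary of the probes of each feature. The sources used here give neither its version, the grouping of probes nor a genome build. Sorted values differed between arrays by at most 0.00183, so a change in total RNA per lung would not be visible, and dim values can understate differences, which was not tested here. Each identifier is a gene number. The platform table named 24705 features, and 564 of the other 723 features, Fpr1 among them, were named through the RefSeq gene number (GRCm38.p6).

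Genotypes, with groups and mouse numbers from the labels, were compared over all 25428 features with limma (version 3.58.1, R 4.3.3; lmFit and eBayes, no filter or covariate, 2-sided, Benjamini-Hochberg, threshold 0.05). No sample was dropped or imputed. The steps were tested on simulated data. The 9 genes and the related lists were chosen with earlier results of these data known. Named were the 9 genes, Nfat5, up to 4 genes of each list with the smallest p among those that passed, otherwise up to 2, and the 8 genes of most similar pattern by Pearson correlation among features brighter than the median feature mean. Listed genes with no matching feature were left out. Ly6g, as the defining marker, Padi4 and the other monocyte markers were named outside this rule after their values were seen.

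The 14 alternative fits were the mouse number as a block, only features above the median feature mean, cyclic loess, median centring, trended and robust moderation, no moderation, array weights, protein-coding features with the lowess trend on gene span removed (fraction 0.3), and each array left out in turn. The filter leaves 13 fits for dim genes. Motifs were searched on both strands of the 250 bases before each RefSeq start. Figures were drawn with matplotlib 3.10.9 (Python 3.11.15).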

Additional observations from a re-analysis of the deposited data

How the results depend on the processing

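Of the 9 neutrophil genes, 2 passed in the reported fit (Ngp and Fpr2). Both passed with median centring, trended and robust moderation or array weights, whereas with the gene span trend removed the 2 were Fpr1 and Fpr2. With the mouse number as a replicate block 1 passed (Fpr2), with cyclic loess 1, with no variance moderation 0, and with only the brighter features 0, a fit that kept 3 of the genes. Leaving out 1 array gave 0 to 2, with 0 without Nfat5fl/fl mouse 1 or mouse 4. Over all features 6510 passed, 6310 with the replicate block, 1984 with no variance moderation, and 3017 to 6365 with 1 array left out, the lowest without Nfat5fl/fl mouse 3 and 3273 without Nfat5fl/fl mouse 1.

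Mouse numbers are shared by the groups, but deviations of same-numbered mice correlated at 0.0647, -0.0103 and 0.00719, and not every array correlated best with its own number, so they were not treated as pairs. No gene reversed while called. Differences that never passed crossed 0 for S100a8 (-0.25 to 0.24), Camp (-0.44 to 0.02), Ltf (-0.31 to 0.22) and Retnlg (-0.90 to 0.32), and a change of sign between fits that both missed the threshold was not counted as a reversal. S100a9 stayed between -0.61 and -0.09, and Csf3r between 0.16 and 0.37, with 0 calls each. Without variance moderation the calls of Prtn3, Cybb, Csf2rb, Cd36, Ceacam1, S100a16, F13a1, Ly6c2, Mrc1, Cdh5 and Tek were lost as well. That fit also lost Car4, Cd22, Cd3g, Cd79a, Cpa3, Il5ra, Pparg and Ppbp. With the gene span trend removed the calls of Prtn3, S100a16, F13a1, Car4, Cd79a, Il5ra and Pparg were lost. The small number of arrays and the dim signal limit the precision of every value, and a difference that did not pass may still exist.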
